A study of Mus musculus with 12 samples.

Results

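The genes described here are 32 genes of the oligodendrocyte lineage and of myelin, measured in mouse hippocampus across the Kcnip3 KO, the 5xFAD model and their combination. They were chosen as a fixed list of symbols, from precursor markers to myelin proteins, and each symbol was matched to its Ensembl identifier in the deposited count table. All 32 were found among the 55385 genes of that table, and all 32 passed the filter on low counts that left 15905 genes for testing. The study took total RNA from freshly dissected hippocampi of adult mice and made poly(A) libraries with the TruSeq mRNA kit. The 12 libraries formed 4 groups of 3. WT mice carried neither modification. Kcnip3 KO mice were labelled Kcnip3 -/- and lack the gene for KChIP3, also called DREAM or calsenilin, a calcium-binding protein of neurons. 5xFAD mice are an amyloid model whose transgenes the Thy1 promoter drives in neurons. Kcnip3 KO-5xFAD mice combine both. The labels used here give no exact age, sex or strain, and they do not say that the triplicates came from separate animals, so p-values measure the spread between these libraries.

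Oligodendrocytes wrap axons of the central nervous system in myelin, a stack of lipid-rich membrane held together by a few abundant proteins. They arise from precursors that carry Pdgfra and the proteoglycan Cspg4, pass through a short-lived differentiating state that expresses Gpr17, Enpp6 and Bcas1, and then switch on myelin genes under Olig1, Olig2, Sox10, Nkx2-2 and Myrf. In the hippocampus myelin lies mainly in the alveus, the fimbria and the perforant path, so the amount of white matter in a dissected piece bears on these transcripts. In bulk tissue, fewer cells of a type and less RNA per cell cannot be told apart.

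The libraries held 7664407 to 11310714 counts, and a count of 3 corresponded to 0.265 to 0.391 CPM (counts per 1000000 counts of the library, TMM-scaled). Neuronal markers summed to 4778 to 5978 CPM and astrocyte markers to 3747 to 4583 CPM, and the hippocampal genes Prox1, of dentate granule cells, and Spink8, of CA1 pyramidal cells, lay at 11.5 to 44.9 and 12.5 to 40.6 CPM. The lowest count of any member in any library was 24, for Enpp6. Kcnip3 lay at 159.6, 158 and 161 CPM in WT, 71.3, 63.3 and 125 in Kcnip3 KO, 138, 156 and 137 in 5xFAD, and 84.8, 68.5 and 69.96 in Kcnip3 KO-5xFAD. It was lower in the Kcnip3 KO groups, but Kcnip3 KO 3 stood close to the libraries with the gene. Thy1, whose promoter is in the transgenes, lay at 745, 885 and 2272 CPM in WT, 747, 791 and 866 in Kcnip3 KO, 2864, 4227 and 2943 in 5xFAD, and 3374, 924 and 2587 in Kcnip3 KO-5xFAD. Trem2, a microglial gene that rises around amyloid, lay at 22.3, 22.8 and 69.9 CPM in WT, 19.6, 21.2 and 24.7 in Kcnip3 KO, 154, 251 and 172 in 5xFAD, and 163, 26.2 and 128 in Kcnip3 KO-5xFAD. By both genes the library labelled WT 3 lay above the other WT libraries, and the library labelled Kcnip3 KO-5xFAD 2 lay among the libraries without transgenes. Both keep their labels below, and the main results are also given without them. Directions that rest on WT 3, Kcnip3 KO-5xFAD 2 or Kcnip3 KO 3 are directions of the libraries as labelled.

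To show the sequence in front of members of 2 roles, 8 promoters are printed, 6 of myelin genes and 2 of precursor genes beside them. They were chosen after the motifs in them were seen, so that windows with and without matches stand in both sets. RefSeq promoter entries on GRCm38.p6 matched 22 of the 32 symbols, with 28 entries in all. Windows hold up to 250 bases upstream of the outermost start, 5′ to 3′ on the gene's strand, and end before the gene model. Capitals mark ACAAAG or ACAATG (letters bound by Sox proteins), CTGGCAC or CTGGTAC (letters of the Myrf motif), and CAGCTG or CATATG (E-boxes, bound by proteins such as Olig2), on either strand.
Cldn11: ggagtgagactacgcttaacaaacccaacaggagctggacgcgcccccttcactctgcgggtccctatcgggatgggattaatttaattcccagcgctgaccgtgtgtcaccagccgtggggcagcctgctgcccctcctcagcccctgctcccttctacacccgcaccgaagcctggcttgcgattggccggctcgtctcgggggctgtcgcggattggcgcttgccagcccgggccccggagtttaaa
Cnp: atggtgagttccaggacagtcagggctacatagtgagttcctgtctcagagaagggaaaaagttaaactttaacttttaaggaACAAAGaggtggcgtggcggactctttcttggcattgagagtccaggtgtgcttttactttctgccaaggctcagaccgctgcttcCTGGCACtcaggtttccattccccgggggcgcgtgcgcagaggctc
Mag: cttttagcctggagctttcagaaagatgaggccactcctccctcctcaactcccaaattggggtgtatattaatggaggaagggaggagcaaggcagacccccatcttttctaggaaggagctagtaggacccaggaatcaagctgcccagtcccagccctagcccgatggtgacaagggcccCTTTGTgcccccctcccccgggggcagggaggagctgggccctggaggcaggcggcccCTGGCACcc
Mobp: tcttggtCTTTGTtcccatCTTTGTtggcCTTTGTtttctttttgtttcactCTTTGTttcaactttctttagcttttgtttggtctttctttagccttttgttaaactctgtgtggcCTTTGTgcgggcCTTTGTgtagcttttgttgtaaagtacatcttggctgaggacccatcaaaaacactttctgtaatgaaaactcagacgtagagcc
Mog: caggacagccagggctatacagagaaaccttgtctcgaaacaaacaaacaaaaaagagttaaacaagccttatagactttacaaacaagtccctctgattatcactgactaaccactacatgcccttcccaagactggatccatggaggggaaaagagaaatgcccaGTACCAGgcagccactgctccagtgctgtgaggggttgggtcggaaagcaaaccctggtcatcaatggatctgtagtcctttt
Opalin: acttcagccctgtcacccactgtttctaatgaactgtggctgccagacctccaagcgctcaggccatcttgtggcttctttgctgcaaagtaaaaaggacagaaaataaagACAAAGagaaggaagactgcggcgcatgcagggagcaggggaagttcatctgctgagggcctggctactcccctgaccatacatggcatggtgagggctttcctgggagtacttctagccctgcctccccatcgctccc
Lhfpl3: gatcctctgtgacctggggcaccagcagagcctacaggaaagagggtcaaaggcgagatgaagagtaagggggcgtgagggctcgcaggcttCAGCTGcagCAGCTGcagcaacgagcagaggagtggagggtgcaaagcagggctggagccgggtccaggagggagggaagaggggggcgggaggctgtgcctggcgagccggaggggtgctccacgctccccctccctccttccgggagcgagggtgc
Pdgfra: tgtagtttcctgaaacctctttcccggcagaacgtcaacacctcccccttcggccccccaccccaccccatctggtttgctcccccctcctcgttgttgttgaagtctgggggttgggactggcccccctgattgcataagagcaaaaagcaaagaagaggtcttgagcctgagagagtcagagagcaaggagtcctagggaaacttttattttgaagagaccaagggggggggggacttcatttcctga
In the order printed, the windows of Cldn11 and Cnp are chr3:31149670-31149919 and chr11:100574689-100574903 on the plus strand, that of Mag is chr7:30914923-30915172 on the minus strand and that of Mobp is chr9:120149492-120149706 on the plus strand. Those of Mog and Opalin are chr17:37023399-37023648 and chr19:41077114-41077363 on the minus strand, and those of Lhfpl3 and Pdgfra are chr5:22745804-22746053 and chr5:75152001-75152250 on the plus strand. The Cnp window held 1 ACAAAG and 1 CTGGCAC, as did the Mag window, where ACAAAG lay on the opposite strand. The Mobp window held 6 copies of ACAAAG, all on the opposite strand, within a repeated stretch. Mog held 1 CTGGTAC on the opposite strand, Opalin held 1 ACAAAG and Lhfpl3 held 2 copies of CAGCTG, while Cldn11 and Pdgfra held none of these letters. Of the 22 members with an entry, 9 had no match, among them the myelin genes Cldn11, Pllp and Gjc3. Over full windows of 250 bases, ACAAAG was present in 7 of the 28 member promoters and in 16.5% of 32851 mouse promoters. Of the 7, 2 are overlapping Mag windows with the same copy. ACAATG was present in 3 of the 28 and in 10.7% of all. CTGGCAC was present in 3 of the 28, of which 2 are overlapping Mag windows with the same copy, and in 4.19% of all. CTGGTAC was present in 1 of the 28 and 1.83% of all, CAGCTG in 4 and 13%, and CATATG in 2, both of Tspan2, and 3.46%. A match is a description of letters and not of a bound site.

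Read per gene length, the members spanned a wide range of levels. On the deposited TPM scale, Mbp, the myelin basic protein that compacts the myelin membrane, was highest with a mean of 1294 TPM over the 12 libraries. Mobp followed at 473 TPM, Trf at 438, Qdpr at 424, Plekhb1 at 383 and Cnp at 376. The lowest were Enpp6 at 2.52 TPM and the matrix gene Vcan at 2.38.

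In 5xFAD against WT, 28 of the 32 members had a positive log2 fold change and 2 were called higher, Trf and Gsn. A gene was called at an adjusted p under 0.05 in edgeR's quasi-likelihood test, adjusted over all 15905 genes. The 2 called members stand beside a background of 1.91% of all genes called higher, and 0 members were called lower against 1.62% of all genes. The median log2 fold change of the members was 0.48, against 0.01 over all genes tested. An unadjusted p under 0.05 was reached by 16 members, 15 of them higher, and by 4030 of the 15905 genes. In 12 members all 5xFAD libraries lay above all WT libraries, an arrangement found for 13.7% of all genes, and in 0 members did all lie below, against 13.9%. Where single members are said below to have all 5xFAD libraries above all WT libraries, that 13.7% is the background. Without WT 3 and Kcnip3 KO-5xFAD 2, 27 of the 32 were higher, the median was 0.33, 6 had an unadjusted p under 0.05 and 0 were called, while 196 of all genes were then called higher and 13 lower. Leaving out any 1 of WT 1, WT 3, 5xFAD 2 and 5xFAD 3 ended nearly all calls over the whole table, not those of these members alone. Without WT 1, 5xFAD 2 or 5xFAD 3, 1 gene of the whole table was called higher and 0 lower, and without WT 3 these were 12 and 1. Without WT 2, Kcnip3 KO 3 or Kcnip3 KO-5xFAD 3 the members also had 0 calls. The whole table then kept 147 genes called higher and 230 lower, 235 and 189, and 143 and 89, in that order. The members with an unadjusted p under 0.05 were 6 without WT 3 or 5xFAD 3 alone. DESeq2 called 6 members higher beside 2.07% of all its genes, and edgeR with no filter on low counts called 18 beside 3.57%. On the log2 TPM scale the median of all genes moved to -0.13, that of the members was 0.32, and 26 of the members were higher. Other measures were set beside this comparison. Mitochondrial transcripts took 3.58% to 3.74% of the counts in 5xFAD, below every library of the other groups, with WT at 3.84% to 5.10%. Astrocyte markers (6 genes) summed to 4048 to 4583 CPM in 5xFAD and 3747 to 4040 in WT, without overlap. Of the 6 genes 3 were higher and 3 lower in 5xFAD, and none was called. Neuronal markers (8 genes) summed to 4778 to 5539 CPM in 5xFAD and 5420 to 5869.6 in WT, with 2 of the 8 higher and 6 lower. Snap25, a synaptic gene among them, was the 1 called, lower at -0.70 ± 0.11 (SE, adjusted p = 0.0173). The part of these measures in the members' values was not tested.

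**Figure D1:**
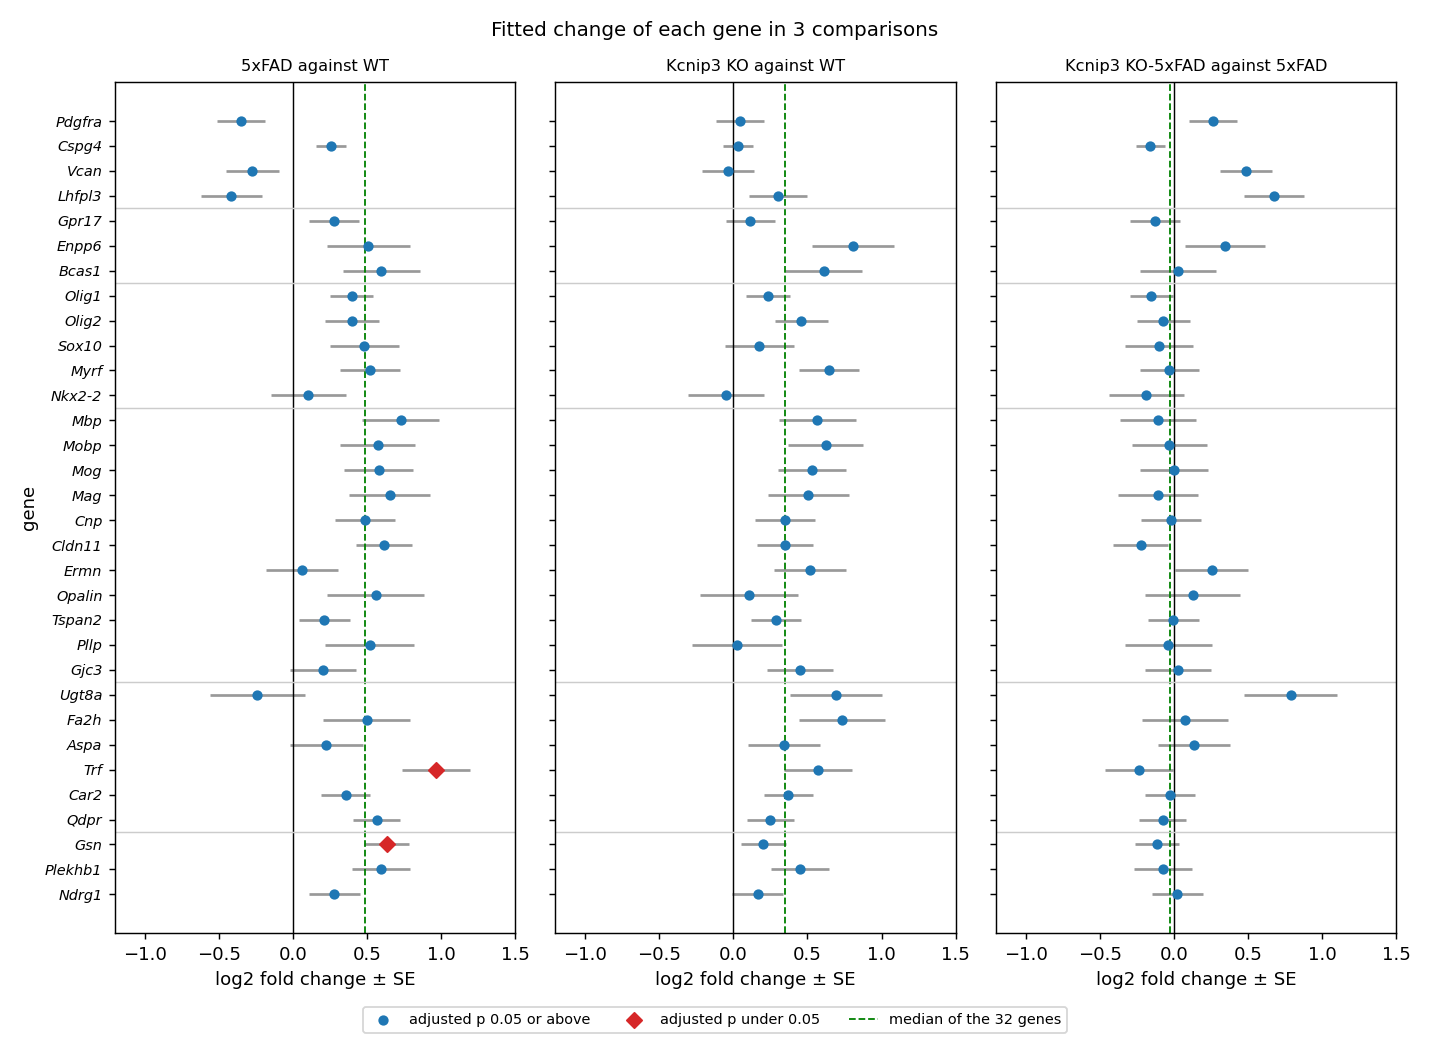
Log2 fold changes of the 32 members (rows, ordered by role) in 3 comparisons, with bars of 1 SE from the edgeR fit of 12 libraries and a dashed line at the members' median. In 5xFAD against WT most members lie right of 0, and Trf and Gsn are the 2 that were called.

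Of the 4 precursor genes 1 was higher and 3 lower in 5xFAD against WT, with a median of -0.31 and no call. Pdgfra, the growth factor receptor that defines precursors and is also made by fibroblasts, lay at 35.3, 30.2 and 35.96 CPM in WT, 40.1, 35.8 and 28.8 in Kcnip3 KO, 30.3, 20.2 and 28.8 in 5xFAD, and 27.8, 36.1 and 31.9 in Kcnip3 KO-5xFAD. Of the 3 5xFAD libraries 2 lay below every WT library, and the groups overlapped. Its log2 fold change was -0.35 ± 0.16 (SE, adjusted p = 0.196) in edgeR. Cspg4, also a gene of pericytes, lay at 31.7, 35.2 and 30.5 CPM in WT, 34.01, 34.4 and 31.2 in Kcnip3 KO, 35.6, 40.9 and 40.02 in 5xFAD, and 34.5, 35.5 and 34.4 in Kcnip3 KO-5xFAD. Each 5xFAD library was above each WT library, by a small margin in 5xFAD 1, and the log2 fold change was 0.26 ± 0.10 (SE, adjusted p = 0.129). Vcan, the matrix proteoglycan versican, lay at 10.9, 9.76 and 10.6 CPM in WT, 10.2, 10.97 and 9.42 in Kcnip3 KO, 8.36, 9.76 and 7.86 in 5xFAD, and 9.29, 14.7 and 12.3 in Kcnip3 KO-5xFAD. Lhfpl3, a tetraspan membrane protein gene whose transcript marks precursors, lay at 11.99, 8.59 and 12.4 CPM in WT, 13.7, 15.6 and 11.5 in Kcnip3 KO, 9.76, 8.77 and 6.41 in 5xFAD, and 14.6, 11.2 and 13.7 in Kcnip3 KO-5xFAD. Both were lower on average in 5xFAD, with log2 fold changes of -0.28 and -0.41, and both overlapped with WT. Markers of other cells that express Pdgfra, Vcan or Cspg4 were also summed. The 6 markers of meningeal fibroblasts summed to 98.7 to 159 CPM in WT and 81.8 to 129 in 5xFAD, and the 6 of endothelial and mural cells to 219 to 301 and 267 to 293. Their part in these values was not tested.

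The 3 genes of differentiating oligodendrocytes were all higher in 5xFAD than in WT on average, with a median of 0.51, and none was called. Gpr17, a receptor of committed precursors, lay at 45.3, 41.5 and 60.97 CPM in WT, 58.9, 46.5 and 54.4 in Kcnip3 KO, 53.99, 70.04 and 55.6 in 5xFAD, and 50.1, 47.5 and 66.8 in Kcnip3 KO-5xFAD. Enpp6, a choline phosphodiesterase of cells about to myelinate, lay at 4.14, 2.55 and 2.81 CPM in WT, 3.65, 7.35 and 5.74 in Kcnip3 KO, 4.18, 4.95 and 4.43 in 5xFAD, and 4.65, 6.21 and 6.37 in Kcnip3 KO-5xFAD. Bcas1, which marks early myelinating cells, lay at 179.5, 118 and 97.8 CPM in WT, 142, 269 and 192 in Kcnip3 KO, 177, 177 and 244 in 5xFAD, and 177, 234 and 199.7 in Kcnip3 KO-5xFAD. For Enpp6 the 5xFAD values all exceeded the WT values, by a narrow margin of 5xFAD 1 over WT 1, at 4.18 and 4.14 CPM. For Gpr17 and Bcas1 the groups overlapped. The log2 fold changes were 0.28 ± 0.17 (SE, adjusted p = 0.312) for Gpr17, 0.51 ± 0.28 (SE, adjusted p = 0.274) for Enpp6 and 0.60 ± 0.26 (SE, adjusted p = 0.177) for Bcas1.

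All 5 transcription factor genes were higher in 5xFAD on average, with a median of 0.40 and no call. Olig1, a basic helix-loop-helix factor of the whole lineage, lay at 126, 111 and 89.4 CPM in WT, 113, 152 and 119.8 in Kcnip3 KO, 123, 152 and 155 in 5xFAD, and 115, 141 and 132 in Kcnip3 KO-5xFAD. Olig2, its partner gene that specifies the lineage, lay at 34.8, 29.6 and 20.4 CPM in WT, 30.8, 42.1 and 43.8 in Kcnip3 KO, 34.3, 41.5 and 36.2 in 5xFAD, and 31.8, 39.6 and 35.2 in Kcnip3 KO-5xFAD. WT 3 was the lowest library for both. Sox10, an HMG-box factor that drives myelin genes, lay at 61.96, 58.6 and 39.5 CPM in WT, 46.3, 77.9 and 56.8 in Kcnip3 KO, 56.3, 72.02 and 94.6 in 5xFAD, and 59.4, 77.5 and 72.04 in Kcnip3 KO-5xFAD. Myrf, which is needed to start and keep myelin gene expression, lay at 65.04, 48.6 and 41.9 CPM in WT, 61.7, 99.2 and 82.5 in Kcnip3 KO, 66.5, 66.1 and 89.5 in 5xFAD, and 60.9, 74.4 and 82.8 in Kcnip3 KO-5xFAD. Every 5xFAD library exceeded every WT library for Myrf, by a narrow margin over WT 1, and its log2 fold change was 0.52 ± 0.20 (SE, adjusted p = 0.136). For Olig1 it was 0.40 ± 0.15 (SE, adjusted p = 0.117), and Nkx2-2, a homeodomain factor of differentiation, had 0.10.

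All 11 genes of the myelin membrane were higher in 5xFAD on average. Their median was 0.56, and 6 of the 11 had an unadjusted p under 0.05, against 25.3% of all genes. In 5 all 5xFAD values exceeded all WT values, an arrangement of 13.7% of all genes, and none of the 11 was called. Mbp lay at 3063, 2298 and 1796 CPM in WT, 2389.5, 4927 and 3276 in Kcnip3 KO, 3519, 3566 and 4758 in 5xFAD, and 3065, 4428 and 3500.3 in Kcnip3 KO-5xFAD. The WT mean was 2386 ± 638 and the 5xFAD mean 3948 ± 702 CPM, and the log2 fold change was 0.73 ± 0.26 (SE, adjusted p = 0.115). Mobp, a basic protein of compact myelin, lay at 1018, 589 and 575 CPM in WT, 846, 1469 and 1045 in Kcnip3 KO, 1012, 887 and 1342 in 5xFAD, and 893, 1184 and 1098 in Kcnip3 KO-5xFAD. WT 1 lay above 5xFAD 1 and 5xFAD 2 for Mobp, so the groups overlapped.

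Mag, the adhesion protein of the innermost myelin layer, lay at 247, 195 and 156 CPM in WT, 188, 393 and 267 in Kcnip3 KO, 255, 278 and 405 in 5xFAD, and 242, 341 and 289 in Kcnip3 KO-5xFAD. Mog, on the outermost surface, lay at 57.7, 48.3 and 36.2 CPM in WT, 52.7, 94.3 and 58.8 in Kcnip3 KO, 64.9, 62.97 and 83.7 in 5xFAD, and 60.7, 85.4 and 65.9 in Kcnip3 KO-5xFAD. Cnp, the cyclic nucleotide phosphodiesterase of non-compact myelin, lay at 384, 343 and 273 CPM in WT, 311, 567 and 394 in Kcnip3 KO, 405, 435 and 561 in 5xFAD, and 399, 518 and 464 in Kcnip3 KO-5xFAD. For all 3 genes the highest WT library, WT 1, was still below the lowest 5xFAD library. The log2 fold changes were 0.65 ± 0.27 (SE, adjusted p = 0.166) for Mag, 0.58 ± 0.23 (SE, adjusted p = 0.15) for Mog and 0.49 ± 0.21 (SE, adjusted p = 0.164) for Cnp. Cldn11, which forms the tight junctions between myelin layers, lay at 125, 88.1 and 88.7 CPM in WT, 99.95, 161 and 123 in Kcnip3 KO, 142, 132 and 187 in 5xFAD, and 118, 139 and 138 in Kcnip3 KO-5xFAD. It came closest to a call in this group, with 0.61 ± 0.19 (SE, adjusted p = 0.0747). Opalin, a glycoprotein of mature oligodendrocytes, lay at 24.8, 30.9 and 13.4 CPM in WT, 16.8, 32.1 and 25.7 in Kcnip3 KO, 22.2, 33.8 and 45.2 in 5xFAD, and 33.2, 42.8 and 35.2 in Kcnip3 KO-5xFAD, and its groups overlapped. Ermn, a cytoskeletal protein of late differentiation, lay at 38.8, 21.01 and 24.8 CPM in WT, 33.1, 47.1 and 40.9 in Kcnip3 KO, 32.3, 20.8 and 34.7 in 5xFAD, and 29.1, 34.3 and 42.1 in Kcnip3 KO-5xFAD. Its log2 fold change of 0.06 was near 0, and it turned negative under 4 other settings and without some single libraries. Tspan2, Pllp and Gjc3, which code for a tetraspanin, plasmolipin and a connexin, had log2 fold changes of 0.21, 0.52 and 0.20.

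**Figure D2:**
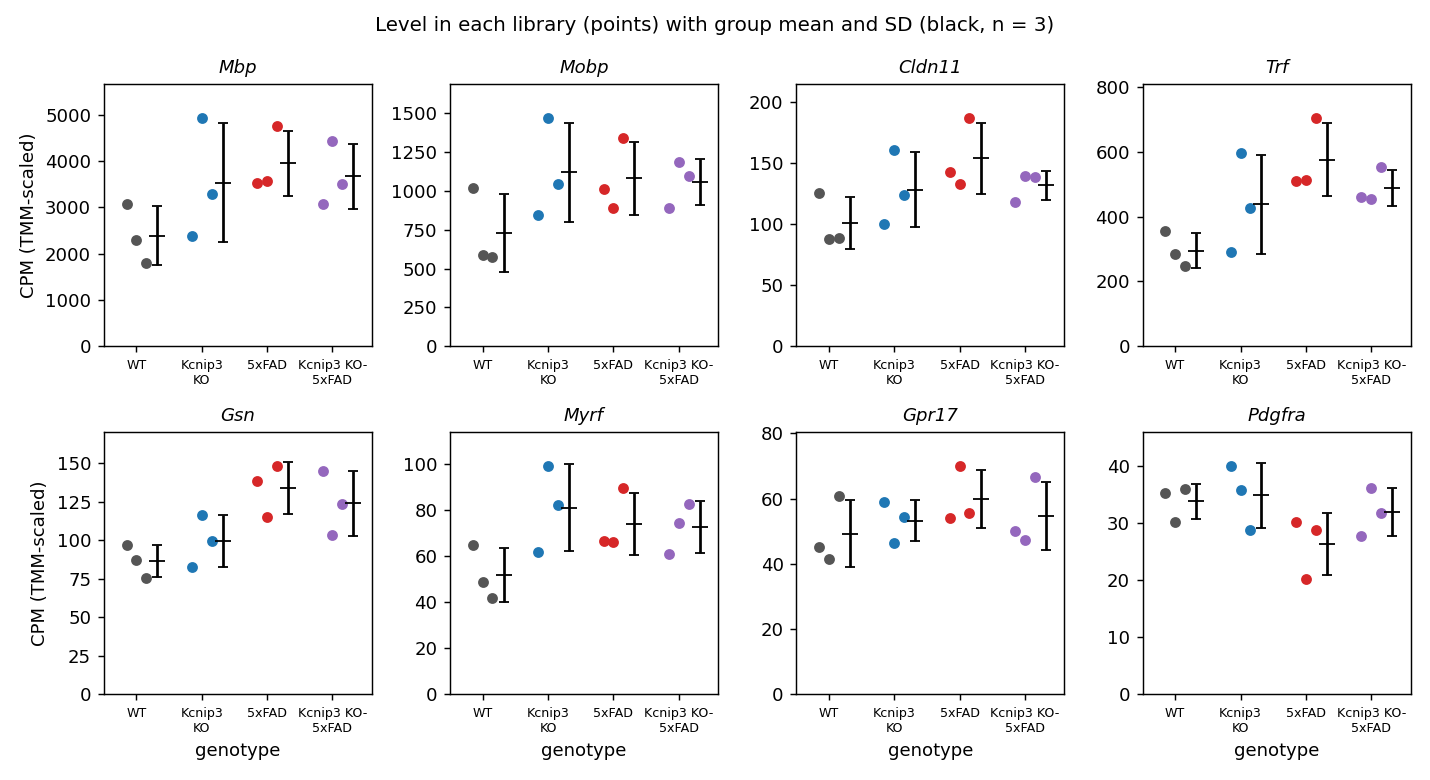
Level of 8 members in each library (vertical axes, TMM-scaled CPM) by genotype (horizontal axes), with 1 point per library and the group mean and SD in black (n = 3). For Trf the 5xFAD libraries lie at 509 to 705 CPM, all above the WT libraries at 247 to 355 CPM.

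Among the enzymes and carriers, Trf was the member with the largest log2 fold change. Trf (ENSMUSG00000032554, chromosome 9, 103204001 to 103230444, GRCm38) codes for transferrin, the iron carrier that oligodendrocytes make in quantity and that the choroid plexus also makes. It lay at 355, 283 and 247 CPM in WT, 290.3, 596 and 428 in Kcnip3 KO, 509, 513 and 705 in 5xFAD, and 459.5, 455 and 554 in Kcnip3 KO-5xFAD. All 3 5xFAD libraries exceeded all 3 WT libraries, with means of 576 ± 112 and 295 ± 54.8 CPM (SD, n = 3 each), and the log2 fold change was 0.96 ± 0.23 (SE, adjusted p = 0.046) in edgeR. The choroid plexus gene Ttr lay at 3169, 3756 and 83.3 CPM in WT, 3792, 2884 and 4385 in Kcnip3 KO, 5886, 202 and 8705 in 5xFAD, and 339.9, 369.8 and 4242 in Kcnip3 KO-5xFAD. WT 3 had the lowest and 5xFAD 3 the highest value of both Ttr and Trf, while in 5xFAD 2, with low Ttr, Trf was at 513 CPM. The part of choroid plexus in the Trf result was not tested. The log2 fold change of Trf was 0.85 without WT 3 and Kcnip3 KO-5xFAD 2, with an adjusted p of 0.196. The call was also lost without any 1 of WT 1, WT 2, WT 3, Kcnip3 KO 3, 5xFAD 2, 5xFAD 3, Kcnip3 KO-5xFAD 1 and Kcnip3 KO-5xFAD 3, at adjusted p of 0.0544 to 0.185.

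Qdpr, which recycles tetrahydrobiopterin, lay at 204, 204 and 147 CPM in WT, 172, 251 and 236 in Kcnip3 KO, 242, 272 and 305 in 5xFAD, and 236, 293 and 249 in Kcnip3 KO-5xFAD. Its 5xFAD libraries were all higher than its WT libraries, with 0.56 ± 0.16 (SE, adjusted p = 0.0603), just short of a call. Car2, a carbonic anhydrase of oligodendrocytes and choroid plexus, lay at 203, 175 and 142 CPM in WT, 179, 263 and 233 in Kcnip3 KO, 198, 212 and 255 in 5xFAD, and 184, 251 and 219 in Kcnip3 KO-5xFAD. Ugt8a, which makes the myelin lipid galactosylceramide, lay at 16.8, 12.2 and 12.6 CPM in WT, 17.01, 28.9 and 21.4 in Kcnip3 KO, 12.5, 5.66 and 16.4 in 5xFAD, and 16.4, 18.96 and 25.6 in Kcnip3 KO-5xFAD. It was the 1 member of this group with a negative value, -0.24, and 5xFAD 2 was its lowest library. Fa2h, which hydroxylates the fatty acids of these lipids, had 0.50, and Aspa, which cleaves N-acetylaspartate, had 0.23.

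Gsn (ENSMUSG00000026879, chromosome 2, 35256380 to 35307892, GRCm38) codes for gelsolin, an actin-severing protein of oligodendrocytes and of several other cell types. It lay at 96.7, 86.9 and 75.7 CPM in WT, 82.5, 116 and 99.6 in Kcnip3 KO, 138, 115 and 148 in 5xFAD, and 145, 103 and 123 in Kcnip3 KO-5xFAD. All 5xFAD libraries exceeded all WT libraries, with means of 134 ± 17.03 and 86.4 ± 10.5 CPM (SD, n = 3 each), and the log2 fold change was 0.63 ± 0.15 (SE, adjusted p = 0.0421) in edgeR. It was 0.54 without WT 3 and Kcnip3 KO-5xFAD 2, with an adjusted p of 0.133. The call was also lost without any 1 of WT 1, WT 2, WT 3, Kcnip3 KO 3, 5xFAD 2, 5xFAD 3 and Kcnip3 KO-5xFAD 3, at adjusted p of 0.0516 to 0.177. Microglial markers moved with this comparison. The summed level of 7 of them was 297 to 502 CPM in WT and 851 to 1090 CPM in 5xFAD, against 308 to 348 in Kcnip3 KO and 358 to 894 in Kcnip3 KO-5xFAD. In WT 1 and Kcnip3 KO 2, 1 of the 7 was at 0. Their part in the Gsn result was not tested. Plekhb1, a membrane-bound pleckstrin homology protein, had 0.59 ± 0.20 (SE, adjusted p = 0.0953), and Ndrg1, linked to Schwann cell and oligodendrocyte myelin, had 0.28.

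In Kcnip3 KO against WT, 30 of the 32 members had a positive log2 fold change and 0 were called by edgeR, beside 0.0251% of all genes called higher and 0.0251% called lower. DESeq2 and limma-voom also called 0 members, beside 10 and 4 of all genes called higher and 19 and 5 lower. With no filter on low counts edgeR called 11 members higher beside 0.639% of all genes. The members' median was 0.35, against 0.00 over all genes, and 12 members had an unadjusted p under 0.05, all of them higher, against 718 of all genes tested. The groups did not overlap for 1 member, Ugt8a, which was higher, while this held for 4.58% of all genes in that direction and for 4.89% in the other. The 3 differentiating genes had a median of 0.61, the 6 enzymes and carriers 0.47, the 11 myelin membrane genes 0.45, and the 4 precursor genes 0.04. Enpp6 had 0.81 ± 0.28 (SE, adjusted p = 0.999), Ugt8a 0.69 ± 0.31 (SE, adjusted p = 0.999) and Myrf 0.64 ± 0.20 (SE, adjusted p = 0.97). Nkx2-2, Bcas1, Ermn and Gsn lie on chromosome 2, as Kcnip3 does, 19.7 to 92.1 Mb from it. Without WT 3 and Kcnip3 KO-5xFAD 2, 26 members were higher, the median was 0.27 and 2 had an unadjusted p under 0.05. Leaving out Kcnip3 KO 2 alone gave a median of 0.20 and 1 member with an unadjusted p under 0.05. That number was 2 without WT 3, 3 without WT 2, 5 without Kcnip3 KO 3, and 18 without WT 1 or Kcnip3 KO 1. This comparison and the preceding one share the WT libraries, in which WT 3 held the lowest value of 19 members.

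Within the Kcnip3 KO group the libraries differed widely. Mbp ran from 2389.5 CPM in Kcnip3 KO 1 to 4927 in Kcnip3 KO 2, and the Kcnip3 KO mean was 3531 ± 1288 CPM. Mobp, Mag, Mog, Cnp and Trf were likewise lowest in Kcnip3 KO 1 and highest in Kcnip3 KO 2. For each of these 6 genes Kcnip3 KO 1 lay below WT 1.

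In Kcnip3 KO-5xFAD against 5xFAD the members had no common direction. Their median was -0.03, 12 were higher and 20 lower, and the number higher was 25 without 5xFAD 3, 24 without Kcnip3 KO-5xFAD 1, and 8 without 5xFAD 1 or 5xFAD 2. In the full fit 0 were called by edgeR, DESeq2 or limma-voom. Over all genes edgeR called 0.0314% higher and 0.0377% lower, DESeq2 called 16 genes higher and 13 lower, and limma-voom 4 and 8. An unadjusted p under 0.05 was reached by 3 members, Ugt8a at 0.79 ± 0.32 (SE, adjusted p = 0.451), Lhfpl3 at 0.67 ± 0.20 (SE, adjusted p = 0.426) and Vcan at 0.49 ± 0.18 (SE, adjusted p = 0.439), all higher, and by 1649 of all genes. All Kcnip3 KO-5xFAD libraries lay above all 5xFAD libraries for Lhfpl3 and Ugt8a and below them for Cspg4. Over all genes this held for 9.05% and 7.29%. For Ugt8a the lowest Kcnip3 KO-5xFAD library and the highest 5xFAD library both rounded to 16.4 CPM. Without WT 3 and Kcnip3 KO-5xFAD 2, 10 members were higher, the median was -0.12 and 1 had an unadjusted p under 0.05. Trf had -0.24 ± 0.23 (SE, adjusted p = 0.706) and Gsn -0.11 ± 0.15 (SE, adjusted p = 0.793).

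In Kcnip3 KO-5xFAD against Kcnip3 KO, 20 members were higher and 12 lower, with a median of 0.04. 0 were called in either direction, beside 0% of all genes, and 0 members had an unadjusted p under 0.05, against 1657 of all genes. DESeq2 and limma-voom also called 0 members, while over all genes DESeq2 called 110 of 31787 higher and 23 lower and limma-voom called 0. Without WT 3 and Kcnip3 KO-5xFAD 2, 13 members were higher, the median was -0.061 and 0 were called, while over all genes 208 were then called higher. Cspg4 and Opalin were higher in every Kcnip3 KO-5xFAD library than in any Kcnip3 KO library, for Cspg4 by less than 0.1 CPM, beside 8.37% of all genes with this arrangement and 7.25% with the opposite one, which 0 members had. The number of members higher was 9 without Kcnip3 KO 1, 28 without Kcnip3 KO 2 and 13 without Kcnip3 KO-5xFAD 2. Trf had 0.16 ± 0.23 (SE, adjusted p = 0.834) and Mbp 0.05 ± 0.26 (SE, adjusted p = 0.964).

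The interaction asked whether the 5xFAD difference was the same with and without Kcnip3. It was negative for 27 of the 32 members, with a median of -0.35, and 0 were called by edgeR, DESeq2 or limma-voom. Over all genes edgeR and limma-voom called 0% in either direction, and DESeq2 called 2 genes positive and 1 negative. With no filter on low counts edgeR called 6 members, all negative, beside 0.403% of all genes. Without Kcnip3 KO 2 the median was -0.21. An unadjusted p under 0.05 was reached by 3 members and by 836 of all genes, and by 0 members without WT 2, WT 3, Kcnip3 KO 2 or 5xFAD 3 alone, 10 without WT 1 and 13 without Kcnip3 KO 1. Trf had -0.80 ± 0.32 (SE, adjusted p = 0.853), Myrf -0.68 ± 0.28 (SE, adjusted p = 0.853) and Cldn11 -0.57 ± 0.26 (SE, adjusted p = 0.853). The interaction contains the WT libraries that also enter both comparisons against WT, so its sign is not separate evidence. A difference of the 5xFAD effects between the Kcnip3 genotypes was therefore not shown for any member.

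**Figure D3:**
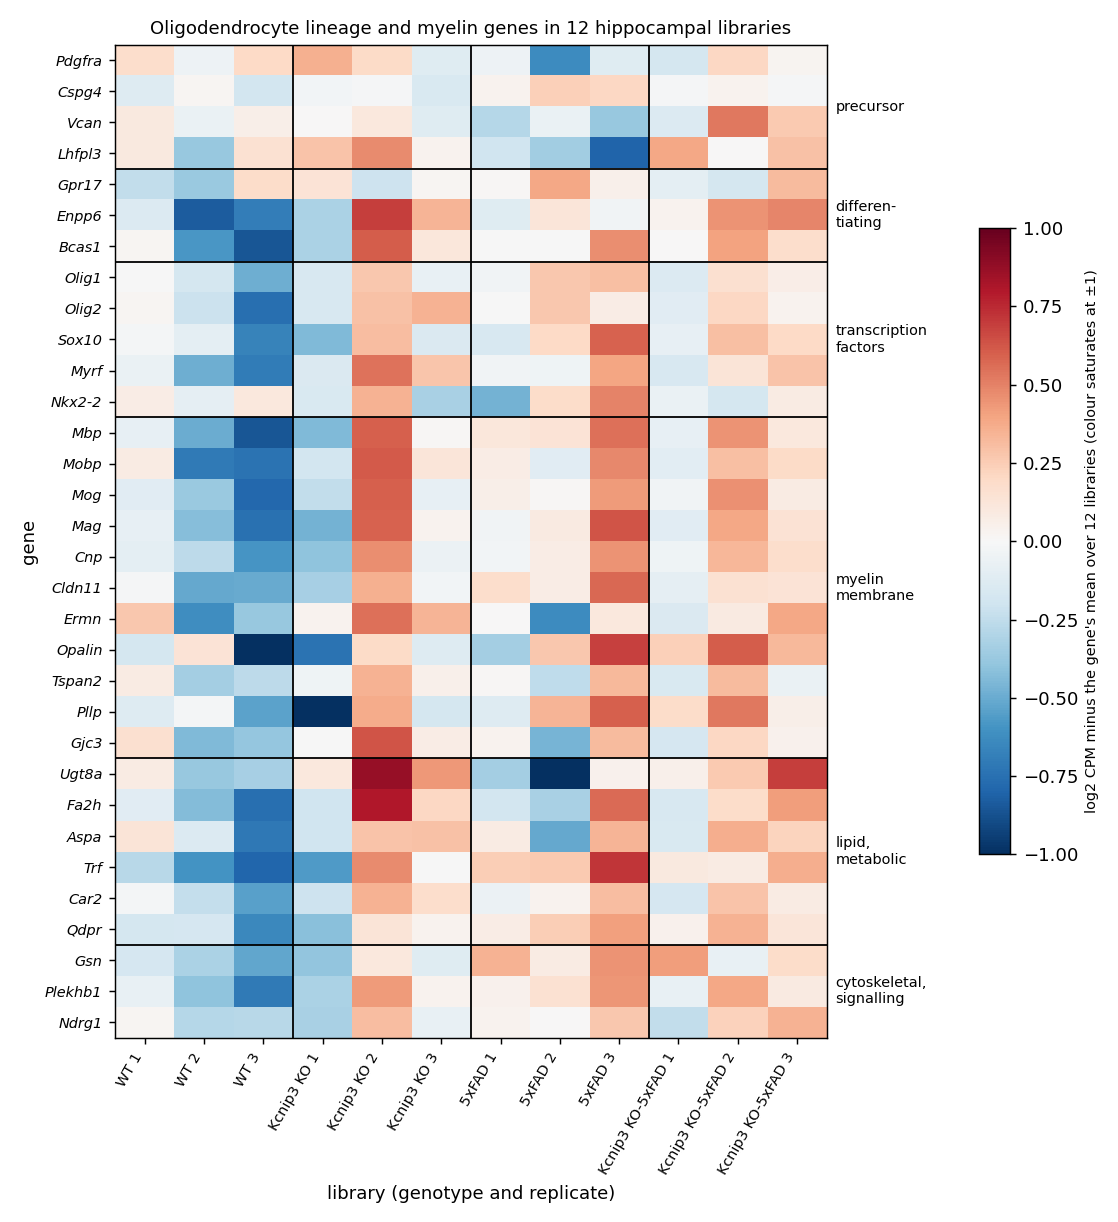
Level of each of the 32 members (rows, by role) in each of the 12 libraries (columns, by genotype), coloured by the log2 difference from the member's mean over all libraries. WT 3 is the lowest column for 19 members, and Kcnip3 KO 2 and 5xFAD 3 are the highest for 14 and 11.

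The spread between libraries of 1 group was wide for the myelin genes. The median within-group SD on the log2 CPM scale was 0.35 for the 11 myelin membrane genes, 0.21 for the 4 precursor genes and 0.21 over all genes tested. Across the 12 libraries the highest value was 1.34 times the lowest for Cspg4, 2.74 times for Mbp, 3.36 times for Opalin and 5.11 times for Ugt8a. Kcnip3 KO 2 was the highest library for 14 members and 5xFAD 3 for 11, while WT 3 was the lowest for 19. The members took 0.461% of the counts in WT 3, 1.03% in 5xFAD 3 and 1.09% in Kcnip3 KO 2. The mean log2 deviation of the 11 myelin membrane genes was -0.01, -0.37 and -0.62 in WT 1 to 3 and -0.35, 0.48 and 0.01 in Kcnip3 KO 1 to 3. It was -0.01, -0.04 and 0.47 in 5xFAD 1 to 3 and -0.05, 0.34 and 0.14 in Kcnip3 KO-5xFAD 1 to 3. WT 1, 5xFAD 1 and 5xFAD 2 therefore stood at about the same level, with WT 2 and WT 3 below them and 5xFAD 3 above. The precursor genes stood at -0.12, -0.20 and -0.27 in 5xFAD and 0.06, -0.12 and 0.05 in WT.

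**Figure D4:**
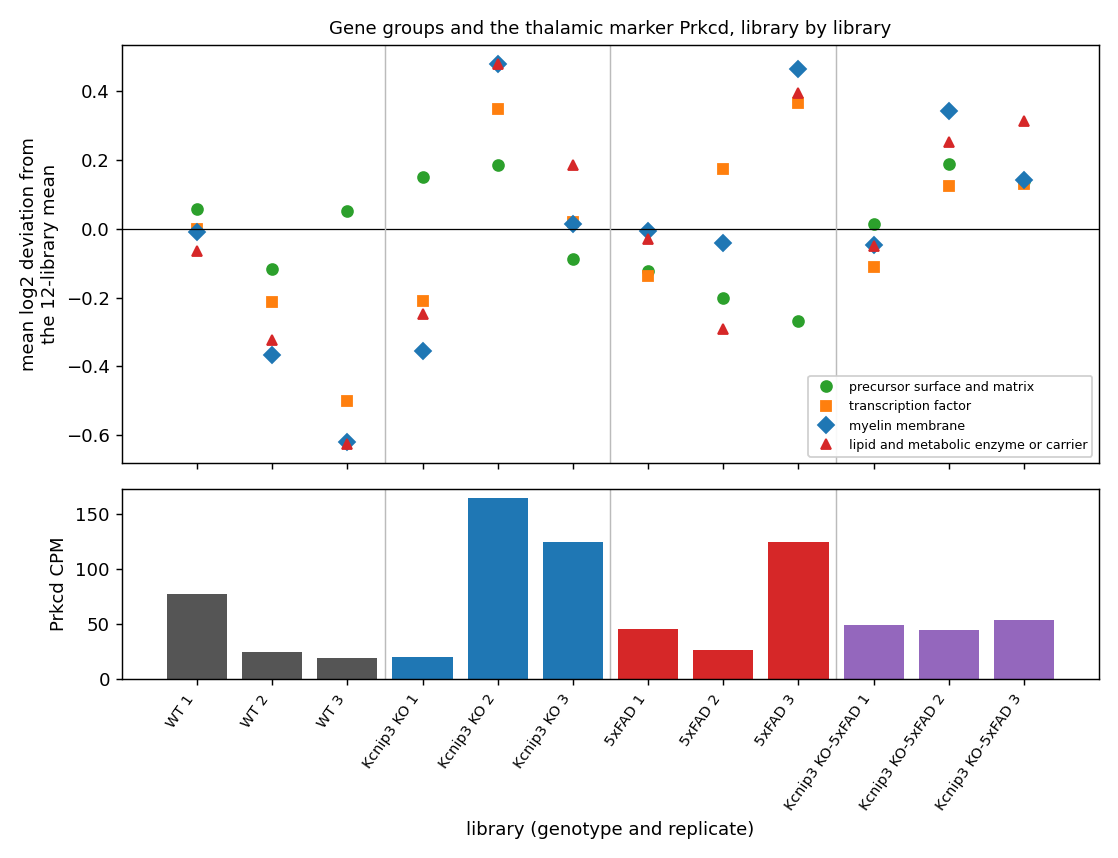
Mean log2 deviation from the 12-library mean (vertical axis) of the members of 4 roles in each library (horizontal axis), with 1 symbol per role, above the level of Prkcd in CPM as bars. Myelin membrane genes run from -0.62 in WT 3 to 0.48 in Kcnip3 KO 2. The mean of the 4 precursor genes runs from -0.27 in 5xFAD 3 to 0.19 in Kcnip3 KO-5xFAD 2, and 5xFAD 1 and WT 2 both round to -0.12. Cspg4, 1 of the 4, was higher in 5xFAD than in WT.

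A marker of tissue next to the hippocampus varied beside this spread. Prkcd, a kinase gene prominent in thalamic neurons, lay at 77.9, 24.5 and 19.4 CPM in WT, 20.1, 165 and 125 in Kcnip3 KO, 46.00, 26.7 and 125 in 5xFAD, and 49.02, 44.7 and 54.2 in Kcnip3 KO-5xFAD. Kcnip3 KO 2, Kcnip3 KO 3 and 5xFAD 3 had the highest Prkcd, and WT 3 and Kcnip3 KO 1 the lowest, while Kcnip3 KO-5xFAD 2, with high myelin genes, had 44.7 CPM. The summed level of 7 markers of neighbouring regions was 138 to 194 CPM in WT, 127 to 267 in Kcnip3 KO, 72.0 to 176 in 5xFAD and 107 to 147 in Kcnip3 KO-5xFAD, with none at 0. Of the 7, 5 were lower in 5xFAD against WT and 1, Rorb, was called lower. The 6 choroid plexus markers summed to 102 to 3857 CPM in WT, 2990 to 4523 in Kcnip3 KO, 220 to 8935 in 5xFAD and 362 to 4395 in Kcnip3 KO-5xFAD. The 4 ependymal markers summed to 25.5 to 38.1, 31.8 to 42.3, 35.2 to 61.2 and 34.5 to 54.5 CPM in the same order. The part of these markers in the results on myelin genes was not tested. Markers of Schwann cells, which make peripheral myelin, were near the floor, with a sum of 3 genes of at most 3.13 CPM in any library and up to 2 of the 3 at 0.

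Other genes of the pathway were read from lists that leave out the 32 members. In 5xFAD against WT, 1.91% of all genes tested were called higher and 1.62% lower, the background for the calls below. Of 38 other genes of mature oligodendrocytes, 34 were higher in 5xFAD against WT, with a median log2 fold change of 0.37, and 2 were called higher. These were Sirt2, a deacetylase abundant in myelin, at 0.50 ± 0.11 (SE, adjusted p = 0.0346), and Gamt, which makes creatine, at 0.65 ± 0.16 (SE, adjusted p = 0.046). Of 18 genes of myelin lipid synthesis, 9 were higher, and Elovl1, which elongates very long fatty acids, was called higher at 0.61 ± 0.13 (SE, adjusted p = 0.0326). The list's median was 0.07. Of 21 other genes of precursors and newly formed oligodendrocytes, 10 were higher, the median was -0.09, and the factor gene Sox5 was called lower at -0.65 ± 0.17 (SE, adjusted p = 0.0489). Of 14 genes of the axon side and regulators of myelination, 6 were higher, with a median of -0.08. Rtn4, which codes for the myelin-associated growth inhibitor Nogo, was called lower at -0.54 ± 0.12 (SE, adjusted p = 0.033). None of these 5 calls stood without WT 3 and Kcnip3 KO-5xFAD 2. The log2 fold changes were then 0.50 for Sirt2, 0.57 for Gamt, 0.59 for Elovl1, -0.54 for Sox5 and -0.45 for Rtn4, at adjusted p of 0.116, 0.194, 0.113, 0.215 and 0.142. Leaving out WT 1, WT 3, 5xFAD 2 or 5xFAD 3 alone also ended each of the 5, as it ended nearly all calls of the whole table. Without WT 2 all but Rtn4 were also lost, while 147 genes of the whole table were still called higher and 230 lower. Of the 12 libraries left out in turn, 9 ended the calls of Gamt and of Sox5, 6 that of Sirt2 and 5 that of Elovl1.

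The fifth list held 9 genes that oligodendrocytes raise in amyloid models and that microglia and astrocytes also express. In 5xFAD against WT 8 of them were higher, and the median was 1.10, the highest of the 5 lists. Of the 9, 3 were called higher, beside 1.91% of all genes. The called genes were Cd9 at 1.38 ± 0.17 (SE, adjusted p = 0.0104), Cd63 at 0.88 ± 0.13 (SE, adjusted p = 0.0166) and H2-K1, whose reads may be shared with close relatives among the class I genes, at 0.91 ± 0.22 (SE, adjusted p = 0.046). These 3 stayed past the threshold without WT 3 and Kcnip3 KO-5xFAD 2, at adjusted p of 0.000124, 0.00204 and 0.00984. Those libraries were set aside by their Thy1 and Trem2 levels, which like this list were higher in 5xFAD, so this is not separate support. Leaving out WT 1, 5xFAD 2 or 5xFAD 3 alone ended all 3 calls, leaving out WT 3 also ended those of Cd63 and H2-K1, and that of H2-K1 was lost without 10 of the 12 libraries in turn. Complement gene C4b lay at 73.4, 62.7 and 143 CPM in WT, 51.3, 75.8 and 78.4 in Kcnip3 KO, 341, 339.7 and 409 in 5xFAD, and 411, 66.4 and 279 in Kcnip3 KO-5xFAD. Kcnip3 KO-5xFAD 2 stood with the libraries without transgenes for C4b, and WT 3 was the highest of those. The microglial marker sums given with Gsn moved with this list, and their part was not tested. In Kcnip3 KO against WT the medians of the 5 lists were 0.35, 0.14, 0.03, -0.02 and -0.10 in the order given, and in Kcnip3 KO-5xFAD against 5xFAD they were -0.04, 0.01, 0.03, 0.00 and -0.37. In these 2 comparisons edgeR called 0 of their genes. The lists hold 38, 18, 21, 14 and 9 genes. Those with an unadjusted p under 0.05 were 8, 2, 1, 3 and 2 by list in the former comparison. In the latter they were 1, 2, 2, 4 and 2. Over all genes tested the shares were 4.51% in the former and 10.4% in the latter.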

How the data were processed

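Total RNA of 12 hippocampal samples was sequenced. The deposited raw count table was used for every test; per the submitters' processing notes, the tools named are FastQC 0.11.9, HISAT2 2.1.0, featureCounts, R 4.2.1 and edgeR 3.38.4, with build mm10. For the strand setting, the sources used here say nothing. The deposited log2 TPM table, made by the authors, served for levels per gene length and as an alternative. Symbols and positions came from GENCODE M21 (GRCm38).

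All 12 libraries were fitted in edgeR 4.0.16 (R 4.3.3) as a quasi-likelihood model (robust) of the 4 genotypes after filterByExpr and TMM. P-values were adjusted by Benjamini-Hochberg over 15905 genes, with a common biological coefficient of variation of 0.144. The scripts were tested on simulated data. Alternatives used limma 3.58.1, DESeq2 1.42.0, other scalings and filters, and left out libraries.

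The members, lists and tests were chosen with earlier results of these data known. Per-library values were given for called members and for 22 members fixed by name, other members by fold change, and other lists by their called genes. SE is the size of the log2 fold change over the square root of its F statistic. Qdpr and Lhfpl3 per library, Prkcd, Ttr, C4b, Prox1 and Spink8 were chosen after their values were seen. The limit of 3 counts covers counting error only, since reads are not independent molecules.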

Additional observations from a re-analysis of the deposited data

How the results depend on the processing

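Each result was recomputed under 24 other settings, 12 of which left out 1 library, and 23 for the interaction. The settings without WT 3 and Kcnip3 KO-5xFAD 2, and without these and Kcnip3 KO 3, were chosen after seeing the data. The members' median log2 fold change ran over 0.32 to 0.59 in 5xFAD against WT, 0.20 to 0.52 in Kcnip3 KO against WT, -0.12 to 0.13 in Kcnip3 KO-5xFAD against 5xFAD, -0.10 to 0.21 in Kcnip3 KO-5xFAD against Kcnip3 KO, and -0.49 to -0.21 in the interaction. The number of members called in 5xFAD against WT was 2 in the reported fit. It was 0 with library size only, on the deposited log2 TPM, with length and GC offsets, without WT 3 and Kcnip3 KO-5xFAD 2, and without these and Kcnip3 KO 3. It was 6 with DESeq2 and 18 with no filter, and leaving out 1 library gave 0 to 4. It was 0 without WT 1, WT 2, WT 3, Kcnip3 KO 3, 5xFAD 2, 5xFAD 3 or Kcnip3 KO-5xFAD 3, 1 without Kcnip3 KO-5xFAD 1, 3 without Kcnip3 KO 1 and 4 without 5xFAD 1. Over all genes the calls, 304 higher and 258 lower, were then 1 and 0 without WT 1, 5xFAD 2 or 5xFAD 3, and 12 and 1 without WT 3. They were 147 and 230 without WT 2, 235 and 189 without Kcnip3 KO 3, and 143 and 89 without Kcnip3 KO-5xFAD 3. Without 5xFAD 1 they were 939 and 1178. With no filter the other comparisons had 11 members called in Kcnip3 KO against WT, 1 in Kcnip3 KO-5xFAD against 5xFAD, 1 in Kcnip3 KO-5xFAD against Kcnip3 KO and 6 in the interaction, against 0 in the reported fit. The cause was not tested. With no filter, 1136 of 31787 genes were called higher and 995 lower in 5xFAD against WT, and with DESeq2 657 and 762. The calls with no filter were 203 and 121 in Kcnip3 KO against WT and 200 and 151 in Kcnip3 KO-5xFAD against 5xFAD. They were 419 and 302 in Kcnip3 KO-5xFAD against Kcnip3 KO, and 144 and 128 in the interaction.

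Trf passed the threshold in 10 of the 24 settings, with log2 fold changes of 0.79 to 1.12 and adjusted p of 2.6e-13 to 0.222, and Gsn in 12 of 24, with 0.45 to 0.72 and adjusted p of 9.06e-06 to 0.177. Of the 22 members followed under every setting, 19 kept their direction in 5xFAD against WT and 16 in Kcnip3 KO against WT. In 5xFAD against WT, Ermn was -0.0055 with library size only, -0.074 on log2 TPM, -0.024 without WT 3 and Kcnip3 KO-5xFAD 2 and -0.023 without these and Kcnip3 KO 3. With length and GC offsets, Ugt8a was 0.086 and Vcan 0.054 in that comparison, and Pdgfra was -0.032 and Cspg4 -0.021 in Kcnip3 KO against WT. Without WT 3 and Kcnip3 KO-5xFAD 2, Kcnip3 KO against WT gave -0.17 for Opalin, -0.00025 for Sox10 and -0.012 for Cspg4. Without Kcnip3 KO 3 as well, it gave -0.20 for Opalin and 0.034 for Vcan. Leaving out 1 library gave -0.12 to 0.36 for Ermn and -0.60 to 0.058 for Ugt8a in 5xFAD against WT. In Kcnip3 KO against WT it gave -0.012 to 0.084 for Cspg4, -0.0032 to 0.30 for Gpr17, -0.17 to 0.36 for Opalin, -0.068 to 0.17 for Pdgfra, -0.049 to 0.34 for Sox10 and -0.089 to 0.021 for Vcan.

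Whether the replicate numbers pair the samples could not be decided, since groups of 3 libraries leave few deviations to compare. Deviations of same-numbered libraries correlated at -0.32 to 0.25, over 0.1 in 6 of 18 pairs, and 3 of 12 libraries correlated best with their own number. With the replicate number as a block, 2 members were called in 5xFAD against WT, Qdpr and Gsn, with Trf at an adjusted p of 0.0559, and 0 in the other comparisons. Of all 15905 genes, 634 were then called higher and 602 lower in 5xFAD against WT, against 304 and 258 in the reported fit. The medians with the block were 0.46, 0.33, -0.03, 0.04 and -0.33 in the order of the comparisons above. Depth was least for Enpp6, with as few as 24 counts in a library.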
